A study of Mus musculus with 6 samples.

Results

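Ectodysplasin is a ligand of the tumor necrosis factor (TNF) family that instructs the skin to form hair, teeth and glands. Its gene Eda is spliced into a form that binds the receptor Edar and a form that binds the receptor Eda2r. Edar carries a death domain and recruits the adaptor Edaradd. The complex passes its signal through Traf6 to the IKK kinases and NF-κB. Tnfrsf19, also called Troy, is a related receptor without a death domain that is found in hair follicle stem cells. The 6 genes Eda, Edar, Edaradd, Eda2r, Tnfrsf19 and Traf6 were taken by symbol from the 24063 symbols in the deposited count tables, 1 transcript row for each symbol. In penile tumors, transcripts of all 3 receptors, of the adaptor and of Traf6 were higher than in normal penile epithelium, while the ligand transcript was lower.

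RNA was sequenced from penile tumors of 3 male SA mice (PB-Cre+ Smad4L/L ApcL/L) and from penile epithelium of 3 WT C57BL/6 males, all at 5 months of age. Tumors arose spontaneously. PB-Cre is a probasin-promoter Cre that is active in androgen-responsive epithelium, of the prostate as well as the penis, where it deletes the floxed exons. The WT mice carried neither Cre nor floxed alleles, and the strain background of the SA mice is not given in the sources used here. Effects of tumor, deletion, Cre and strain therefore cannot be told apart. Whether mice shared a litter is not given either, and p-values measure the spread between these 6 samples.

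The gene rows held between 23828283 and 110509147 counts per sample, and SA tumor 3 had 4.42 times the median depth of the remaining 5. Values are given in CPM, counts scaled to library size with TMM normalization. The depth allows a floor of 3 counts, or 0.0244 to 0.137 CPM, for counting error only. Smad4 was lower in the SA tumors, at 36.6, 36.0 and 46.0 CPM against 61.1, 69.7 and 72.5 in WT, a log2 fold change of -0.77 (SE 0.128, adjusted p = 0.00114). Apc was higher, at 253, 194 and 197 CPM against 62.5, 85.3 and 91.0 in WT, a log2 fold change of 1.43 (SE 0.168, adjusted p = 0.000185). Scaled to epithelial markers, Smad4 was 0.01 (adjusted p = 0.943) and its sign turned. SE is the standard error. The counts cover whole transcripts, reads outside a deleted exon included, so that neither value checks the deletion. Epithelial marker genes were present in every sample, at a summed 18389.7 to 20550.2 CPM in SA and 36831 to 38789 in WT. The tissue labelled WT epithelium also held smooth muscle markers at a summed 1642 to 2172 CPM, against 89.3 to 197 in SA. In bulk tissue, fewer cells of a type and less RNA per cell cannot be told apart.

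At an adjusted p-value under 0.01 in edgeR's quasi-likelihood test, 5 of the 6 genes were higher and 1 was lower in SA tumors. Over all 16336 genes tested, 20.1% were higher and 17.5% were lower at this threshold. With a log2 fold change of at least 2 as a second threshold, 2 of the 6 genes were higher, Edar and Tnfrsf19, against 9.41% of all genes higher and 3.59% lower. The SA and WT values did not overlap for any of the 6 genes. This held for 63.4% of all genes, 32.7% with the SA values higher and 30.7% with them lower. The median log2 fold change was 1.59 over the 6 genes and 0.03 over all genes tested. The 6 genes were chosen with earlier results of these data known, so that these counts are a description. The plot of each sample's values shows the ligand and the other 5 genes moving in opposite directions.

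**Figure D1:**
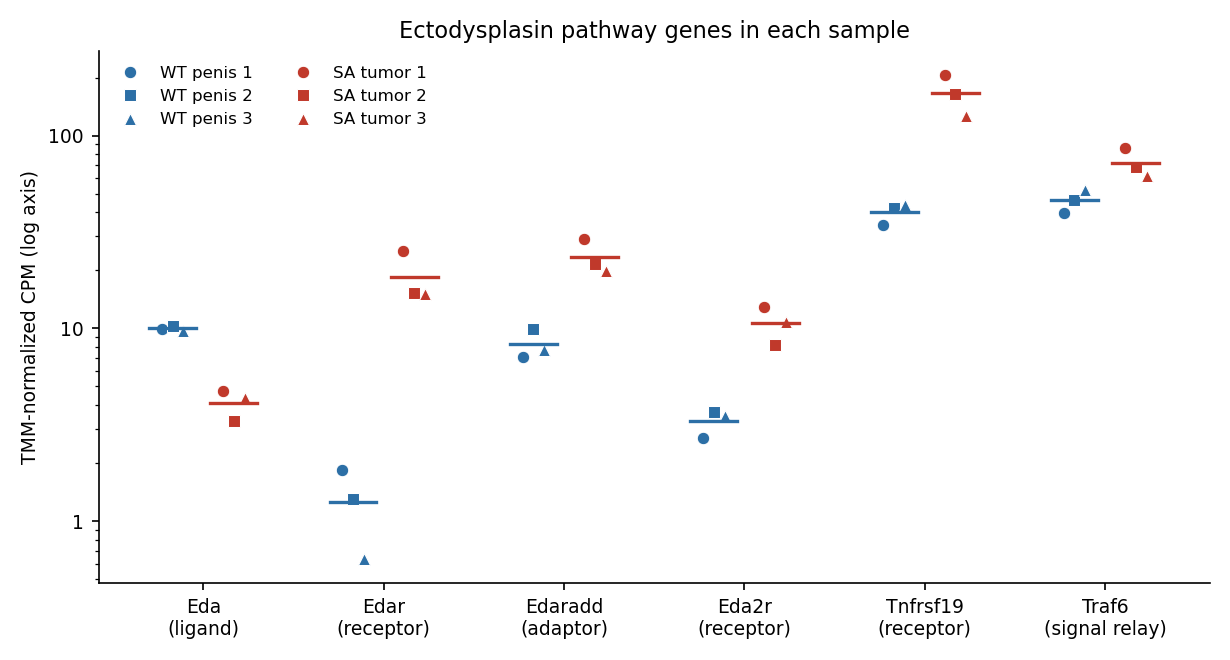
TMM-normalized CPM on a log axis for the 6 ectodysplasin pathway genes, with 1 symbol shape for each replicate number, WT penis in blue and SA tumor in red. Horizontal lines are group means of 3 samples. Eda is the only one of the 6 with WT values above SA values, and Edar shows the widest separation, from 0.638 to 1.85 CPM in WT against 15.2 to 25.1 in SA.

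Eda lies at chrX:99975606-100400760 (plus strand) of GRCm38.p6, the assembly behind mm10, and its product is made as a membrane protein that furin cleaves to release the ligand. The Eda transcript measured 4.72, 3.31 and 4.34 CPM in SA tumors 1, 2 and 3. It measured 9.99, 10.3 and 9.70 CPM in WT penises 1, 2 and 3. The WT values were close to each other, and every tumor was below the lowest of them. The mean fell from 10.01 ± 0.323 to 4.12 ± 0.728 CPM (SD, n = 3 each). The log2 fold change was -1.28 (SE 0.185, adjusted p = 0.000567), or 2.43-fold lower. With libraries scaled to the epithelial marker list it was -0.51 (adjusted p = 0.0380), past no threshold used here. The 9 Eda transcript rows in the tables held between 99.6% and 100% of the count of the chosen row NM_001177943 in every sample. They share nearly all reads, so that the Edar-binding and the Eda2r-binding splice forms cannot be told apart.

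Edar is the receptor that the Edar-binding form of ectodysplasin uses to start hair and tooth placodes, the epithelial thickenings from which these organs grow. It lies at chr10:58600780-58675696 (minus strand) and is represented by the single row NM_010100. Edar measured 25.1, 15.3 and 15.2 CPM in SA tumors 1, 2 and 3. It measured 1.85, 1.30 and 0.638 CPM in WT penises 1, 2 and 3, from counts of 41, 39 and 14. Edar was scarce in normal tissue, and SA tumor 1 stood above the other two, which were alike. The mean was 18.5 ± 5.72 CPM in SA against 1.26 ± 0.608 in WT (SD, n = 3 each). The log2 fold change was 3.87 (SE 0.368, adjusted p = 6.35e-05), or 14.6-fold, with a 95% interval of 3.02 to 4.71. Of all genes tested, 95.6% had a lower log2 fold change.

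Edaradd, the death-domain adaptor without which Edar does not signal, lies at chr13:12471209-12520535 (minus strand) and has the single row NM_133643. It measured 28.9, 21.7 and 19.8 CPM in SA tumors 1, 2 and 3. WT penises 1, 2 and 3 held 7.09, 9.98 and 7.74 CPM. The lowest tumor was at 1.99 times the highest WT value. The log2 fold change was 1.50 (SE 0.195, adjusted p = 0.000322), or 2.82-fold. Edar and Edaradd were both highest in SA tumor 1.

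Eda2r, also called Xedar, binds the other splice form of ectodysplasin and has no death domain. It is X-linked like the ligand, at chrX:97333837-97377234 (minus strand). The chosen row, NM_001161432, measured 12.9, 8.21 and 10.8 CPM in SA tumors 1, 2 and 3. It measured 2.71, 3.70 and 3.51 CPM in WT penises 1, 2 and 3. No SA value reached down to the WT values, and the log2 fold change was 1.68 (SE 0.226, adjusted p = 0.000386), or 3.21-fold.

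Tnfrsf19 had the highest level of the 6 genes in SA tumors, both in CPM and per length. It lies at chr14:60963834-61046855 (minus strand) and is represented by NM_013869. SA tumors 1, 2 and 3 held 206, 165 and 126 CPM. WT penises 1, 2 and 3 held 34.3, 41.9 and 43.5 CPM. The tumors differed from each other more than the WT samples did, but the lowest tumor was at 2.89 times the highest WT value. The log2 fold change was 2.05 (SE 0.187, adjusted p = 4.87e-05), or 4.15-fold, with a 95% interval of 1.63 to 2.48. It fell below the log2 fold change of 2 without SA tumor 1, at 1.86 (adjusted p = 3.18e-05), and without WT penis 1, at 1.94 (adjusted p = 0.000574). The annotated lincRNA gene Gm41168 overlaps its 5′ part on the opposite strand, and the strand setting of the counting is not given in the sources used here.

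Traf6 encodes a ubiquitin ligase that Edaradd shares with the interleukin-1 and Toll-like receptors. It lies at chr2:101678420-101701668 (plus strand) and has the single row NM_009424. It measured 86.5, 68.6 and 61.8 CPM in SA tumors 1, 2 and 3. It measured 39.9, 46.1 and 52.4 CPM in WT penises 1, 2 and 3. The groups did not overlap, but the lowest tumor and the highest WT penis were close. The log2 fold change was 0.65 (SE 0.153, adjusted p = 0.00732), or 1.57-fold, the smallest of the 6 in size. The adjusted p missed 0.01 when a single sample, SA tumor 1 or 2 or WT penis 1 or 2, was left out. The log2 fold change was 0.49 (adjusted p = 0.0171) without SA tumor 1 and 0.68 (adjusted p = 0.0181) without SA tumor 2. It was 0.54 (adjusted p = 0.0286) without WT penis 1 and 0.63 (adjusted p = 0.0267) without WT penis 2.

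**Figure D2:**
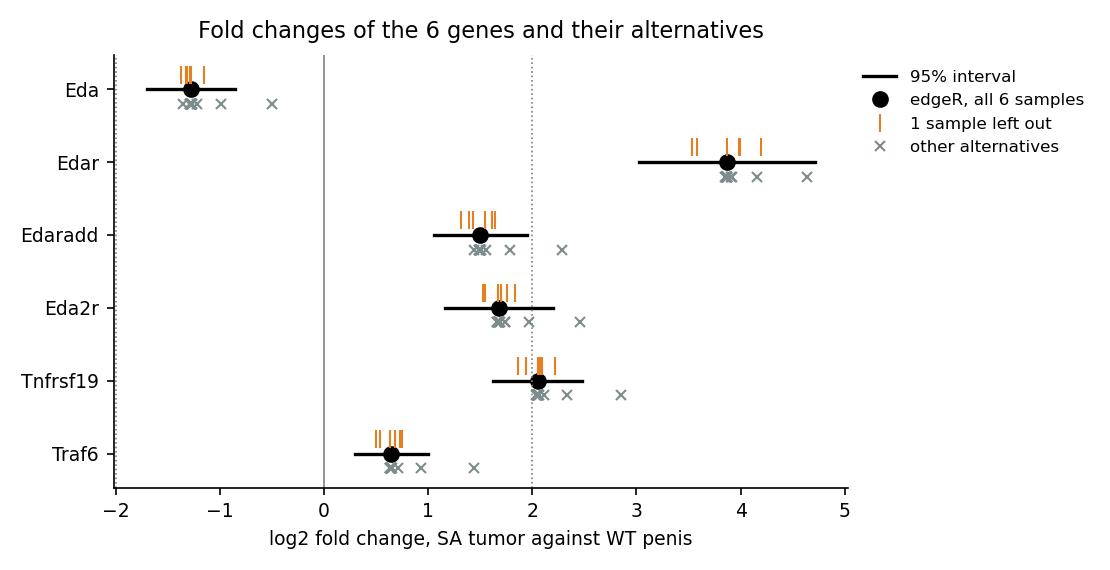
Log2 fold change of SA tumor against WT penis on the horizontal axis for each of the 6 genes, with its 95% interval (black), the 6 values with 1 sample left out (orange ticks) and the other alternatives (grey crosses). The dotted lines mark log2 fold changes of 2 in size. Each gene keeps its side of 0 throughout, and the crosses farthest to the right are from scaling to epithelial markers.

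Levels of different genes were compared per length, by the TPM, a share of all transcripts corrected for length, that the authors deposited for the chosen rows. In WT penises the median was 12.6 (range 9.47 to 13.5) for Tnfrsf19 and 11.8 (range 9.32 to 13.8) for Traf6, which overlapped. Eda followed at 2.74 (range 2.50 to 2.83), then Edaradd at 1.38 (range 1.12 to 1.72), Eda2r at 1.06 (range 0.725 to 1.08) and Edar at 0.494 (range 0.250 to 0.645). The ligand thus ranked above the adaptor and the receptors that it binds, and these 4 ranges did not overlap. In SA tumors Tnfrsf19 was at 60.9 (range 49.6 to 79.5) and Traf6 at 21.5 (range 20.6 to 28.3). Edar came next at 7.52 (range 7.13 to 12.2), ahead of Edaradd at 4.58 (range 4.46 to 6.39) and Eda2r at 4.12 (range 2.93 to 4.82), and the ranges of the latter pair overlapped. Eda was lowest at 1.55 (range 1.11 to 1.65). Edar moved from the last place to the third, and Eda from the third place to the last.

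The balance of the receptors was compared within each library, which needs no scaling between libraries. The log2 ratio of Edar to Eda2r per length was 1.34, 1.28 and 0.87 in SA tumors 1, 2 and 3. It was -0.15, -1.08 and -1.92 in WT penises 1, 2 and 3. Edar was thus above Eda2r in every tumor and below it in every WT penis, a difference of means of 2.21. The log2 ratio of Edar to Tnfrsf19 was -2.84 ± 0.221 in SA and -4.66 ± 0.881 in WT (SD, n = 3 each). Both differences had p = 0.1 in the two-sided exact permutation test and 0.1 after adjustment over the 2 ratios, the smallest p-value that 3 samples against 3 allow. The test cannot pass 0.05 in this design.

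RefSeq sequences of the 250 bases upstream of the annotated starts were read for all 6 genes, in 7 windows because Tnfrsf19 has 2 starts. The core motif of TCF/LEF factors, CTTTGA, was searched on either strand. These factors are the DNA-binding partners of β-catenin. The motif was present in 2 of the 7 windows, those of Edar and of the inner Tnfrsf19 start, but not at the outer start. It was found in 13.8% of all 32841 windows. In both matching windows it was followed or preceded by the base that makes the longer form CTTTGAT. This form contains the core and was found in 3.21% of all windows. Whether the motif is more frequent upstream of the 6 genes was not tested. On either strand, none of the 7 windows held the NF-κB consensus, found in 7.25% of all windows, or the p53 half-site, found in 7.13%. A match is a description of these letters and not of binding. The windows of Edar, chr10:58675697-58675946 (minus strand), and of the inner Tnfrsf19 start, chr14:61037988-61038237 (minus strand), are shown for the motif, which is in capitals. The window of Eda, chrX:99975356-99975605 (plus strand), is shown as that of the gene that fell. Like the windows of Edaradd, Eda2r and Traf6, which rose, it held no such motif. Its share of G and C was 75.6%, against a median of 52.4% over all windows.
Edar: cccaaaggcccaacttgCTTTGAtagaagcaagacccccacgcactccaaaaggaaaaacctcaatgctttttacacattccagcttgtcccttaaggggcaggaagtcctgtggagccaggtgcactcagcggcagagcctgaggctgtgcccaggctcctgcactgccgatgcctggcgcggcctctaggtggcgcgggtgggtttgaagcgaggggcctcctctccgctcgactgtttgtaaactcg
Tnfrsf19: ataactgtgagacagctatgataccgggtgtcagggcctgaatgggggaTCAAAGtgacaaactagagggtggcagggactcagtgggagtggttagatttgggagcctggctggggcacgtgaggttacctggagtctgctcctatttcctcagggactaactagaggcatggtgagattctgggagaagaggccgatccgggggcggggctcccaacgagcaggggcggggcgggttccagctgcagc
Eda: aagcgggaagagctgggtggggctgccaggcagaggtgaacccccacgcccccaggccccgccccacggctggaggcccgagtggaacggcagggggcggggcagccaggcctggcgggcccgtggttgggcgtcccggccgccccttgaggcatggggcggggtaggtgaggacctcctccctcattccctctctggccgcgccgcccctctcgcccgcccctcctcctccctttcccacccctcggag

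Other receptors of the TNF family were read beside Edar, Eda2r and Tnfrsf19. Of 24 other receptor genes listed, 22 were tested, and 10 were higher, 2 were lower and 10 passed no threshold. That is 45.5% higher and 9.09% lower, against 20.1% and 17.5% of all genes. Their median log2 fold change was 0.77. This list was chosen with earlier results of these data known, so that the count is a description. Among the genes tested, Tnfrsf8 reached the filter level in the SA samples only. It could therefore enter the count and the ranking only as higher. Edar had the third-highest log2 fold change of the 25 receptor genes tested, after Tnfrsf11b and Tnfrsf8, and Tnfrsf19 and Eda2r were at places 7 and 8. Tnfrsf11b, a decoy receptor for the ligand RANKL, rose by 6.08 (SE 0.361, adjusted p = 6.54e-06) on the log2 scale. Tnfrsf8, or CD30, was at 2.30, 2.18 and 2.05 CPM in SA tumors 1, 2 and 3 and at 0.0452 to 0.200 in WT, below the floor in 2 of the 3 WT samples. The intervals of Edar (3.02 to 4.71) and Tnfrsf8 (3.16 to 5.14) overlapped. Tnfrsf9, or 4-1BB, rose by 2.95 (SE 0.380, adjusted p = 0.000305). Tnfrsf13c, the B cell receptor for BAFF, fell by 3.73 (SE 0.302, adjusted p = 2.50e-05) and Tnfrsf1a, the main TNF receptor, by 0.73 (SE 0.112, adjusted p = 0.000752), both on the log2 scale, and the Tnfrsf1a value changed sign when libraries were scaled to epithelial markers.

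**Figure D3:**
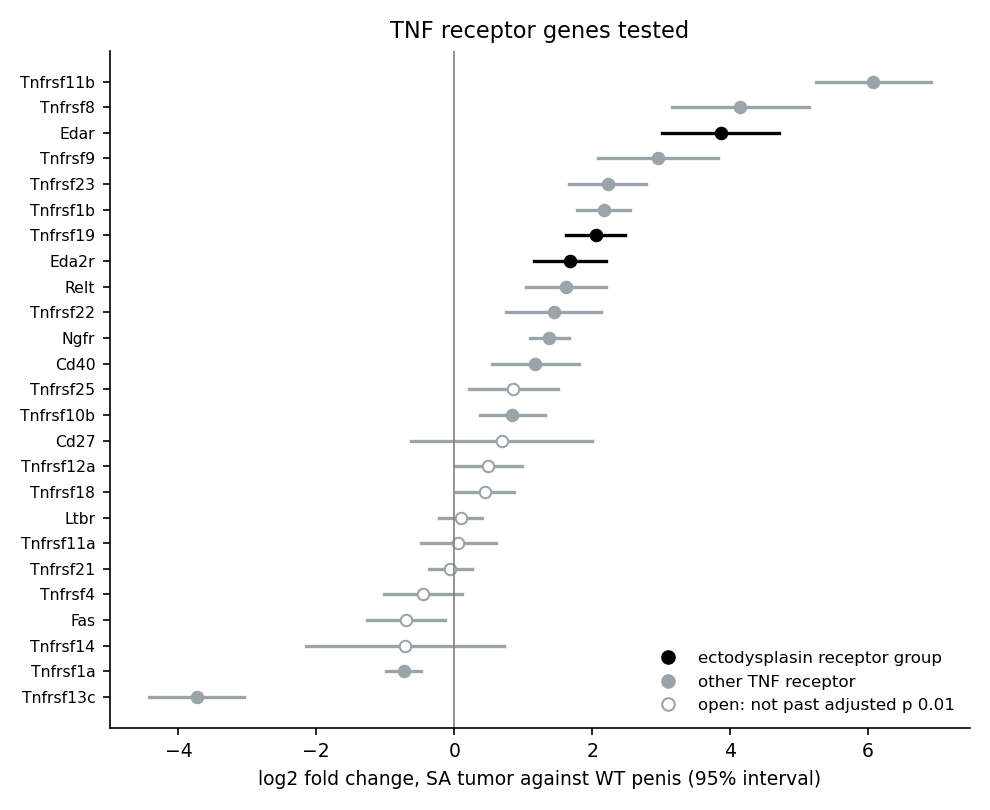
Log2 fold change of SA tumor against WT penis with its 95% interval for the 25 TNF receptor genes tested, ordered by value. Edar, Tnfrsf19 and Eda2r are black, other receptors are grey, and open circles did not pass an adjusted p of 0.01. The 3 genes in black sit within the upper 8 places. Tnfrsf22 and Tnfrsf23 are close paralogs that may share reads.

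Between the receptor and NF-κB, the share of genes that passed was close to that among all genes. Of 26 genes of this list, which holds furin, other TRAFs, the TAK1 and TAB genes, the IKK subunits, NF-κB subunits and their inhibitors, 4 were higher, 5 were lower and 17 passed no threshold. The share called was 34.6%, against 37.6% of all genes, and the median log2 fold change was -0.14. Furin, the protease gene, was at 276, 278 and 253 CPM in SA tumors 1, 2 and 3 and at 117, 120.1 and 128 in WT penises 1, 2 and 3, a log2 fold change of 1.14 (SE 0.0927, adjusted p = 2.55e-05). Traf4 rose by 2.80 (SE 0.173, adjusted p = 6.54e-06) and the inhibitor gene Nfkbie by 1.26 (SE 0.302, adjusted p = 0.00774). Traf3, at 1.11 (SE 0.130, adjusted p = 0.000185), was the fourth gene to rise. The kinase genes Map3k7 (0.36, adjusted p = 0.0275), Chuk (0.49, adjusted p = 0.0259) and Ikbkb (0.34, adjusted p = 0.0193), and the Traf6 partners Tab2 (-0.07, adjusted p = 0.583) and Tab3 (0.03, adjusted p = 0.884), did not pass. The genes that fell were Traf5 and Nfkb1 and the feedback inhibitors Nfkbia, Tnfaip3 and Cyld, which NF-κB is known to induce or which remove ubiquitin chains from the pathway. Nfkbia was at 106, 122 and 105 CPM in SA tumors 1, 2 and 3 and at 164, 196 and 181 in WT penises 1, 2 and 3, a log2 fold change of -0.70 (SE 0.107, adjusted p = 0.000779). That of Traf5 was -0.73 (SE 0.163, adjusted p = 0.00542). Tnfaip3, which encodes A20, was at -0.68 (adjusted p = 0.00119), Cyld at -0.58 (adjusted p = 0.00432) and Nfkb1 at -0.47 (adjusted p = 0.00715). None of these 5 falls passed the threshold when libraries were scaled by their totals only, a setting that shifts the median of all genes to 0.31, and all 5 changed sign when scaled to epithelial markers, which shifts it to 0.82.

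Genes that respond to Eda and Edar in developing skin appendages were read next. The list of 18 such genes was chosen with earlier results of these data known, so that its direction is not independent evidence. Of 16 tested, 13 were higher, 0 were lower and 3 passed no threshold, against 20.1% of all genes higher. Their median log2 fold change was 2.31, and 9 passed the fold-change threshold as well. None was lower by edgeR at the threshold, with 0 at an unadjusted p under 0.05, 0 by DESeq2 and 0 by limma-voom. Cxcl11 and Madcam1 were too low to be tested. Of the genes tested, Shh, Fgf20 and Foxi3 reached the filter level in the SA samples only, so that they could enter the count only as higher, and the count is given as a description. Several of these genes, such as Dkk4, Wnt10b and Fgf20, also respond to Wnt/β-catenin signaling, and the counts do not separate the inputs.

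Shh, the hedgehog ligand of placodes, was at 116, 90.5 and 92.2 CPM in SA tumors 1, 2 and 3, and at 0.361, 0.300 and 0.319 in WT penises 1, 2 and 3. Its log2 fold change was 8.25 (SE 0.192, adjusted p = 6.09e-07). Foxi3, a transcription factor of placodes, was at 20.8, 12.7 and 11.03 CPM in SA and had 3 counts over the 3 WT samples. The ratio of its summed levels was 316, with an exact 95% interval of 108 to 1531 that covers counting error only. Both were low in normal tissue, Foxi3 below the floor in each WT sample, and far above the floor in each tumor.

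Fgf20, a growth factor that Eda induces in placodes, was at 47.7, 27.5 and 30.00 CPM in SA tumors 1, 2 and 3 and had 4 counts over the 3 WT samples, a ratio of 597 (exact 95% interval 233 to 2191). Dkk4, a secreted Wnt inhibitor, was at 291, 166 and 165 CPM in SA and at 0.407, 0.300 and 0.638 in WT. Wnt10b was at 90.3, 62.4 and 69.2 CPM in SA and at 1.31, 1.77 and 3.78 in WT, a log2 fold change of 5.03 (SE 0.368, adjusted p = 3.28e-05). All 3 were highest in SA tumor 1, as Edar was. The parathyroid-hormone-like gene Pthlh rose by 2.90 (SE 0.222, adjusted p = 2.02e-05) and the activin inhibitor gene Fst by 2.70 (SE 0.128, adjusted p = 2.43e-06). The lymphotoxin gene Ltb rose by 2.42 (adjusted p = 0.00626), Bmp4 by 2.20 (adjusted p = 8.99e-06) and the BMP and Wnt modulator gene Sostdc1 by 1.69 (adjusted p = 0.000105). Lower rises were measured for Lrp4, at 1.40 (SE 0.152, adjusted p = 0.000120), Wnt10a, at 0.77 (adjusted p = 0.00238), and the chemokine gene Cx3cl1, at 0.59 (adjusted p = 0.00678). Ctgf, a matricellular gene, was at 37.7, 82.8 and 76.3 CPM in SA and at 62.8, 112 and 205 in WT, with a log2 fold change of -0.95 that did not pass (adjusted p = 0.149). Ccnd1 and Cxcl10 did not pass either, at 0.45 (adjusted p = 0.0672) and 0.74 (adjusted p = 0.282).

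**Figure D4:**
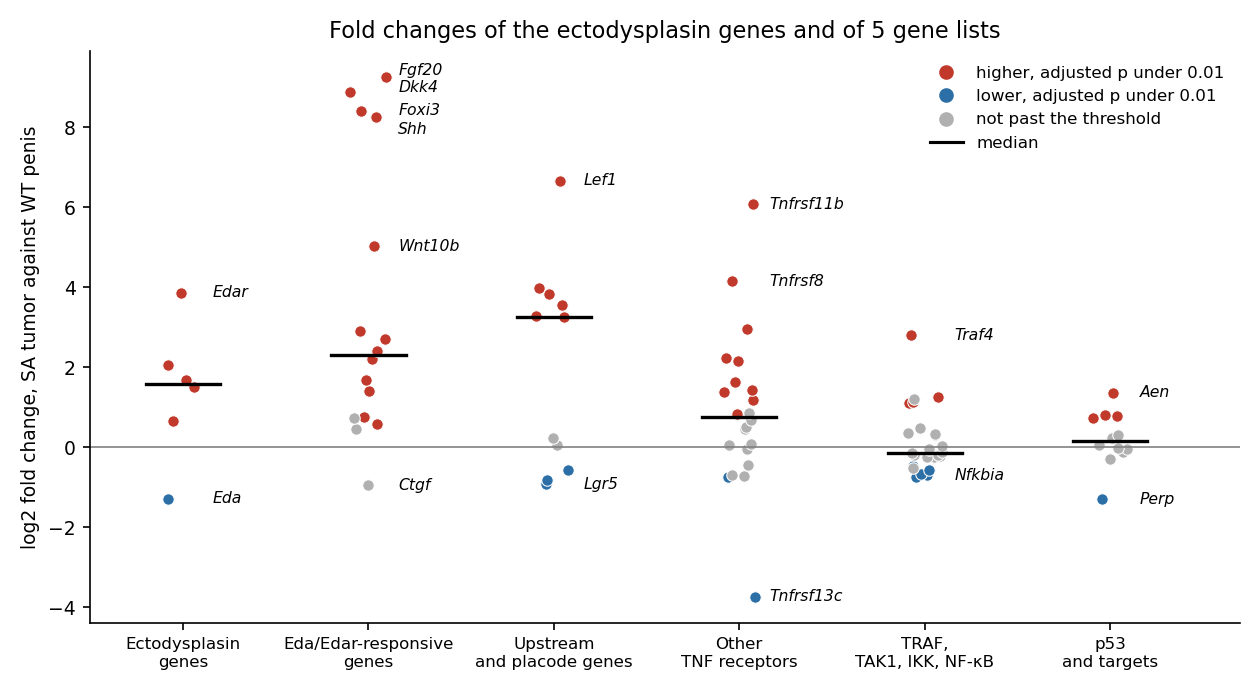
Log2 fold change of SA tumor against WT penis for each tested gene of the 6 ectodysplasin genes and of 5 other gene lists, with the median of each list as a black line. Red and blue points are higher and lower at an adjusted p under 0.01, and grey points passed no threshold. The lists of Eda/Edar-responsive genes and of upstream and placode genes have medians of 2.31 and 3.27, and the relay list has -0.14. The heights of Foxi3 and Fgf20 depend on how their few WT counts are handled.

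Genes that act upstream of Eda and Edar, or that mark placodes and stem cells, included both higher and lower genes. Of 11 tested, 6 were higher, 3 were lower and 2 passed no threshold. That is 54.5% higher and 27.3% lower, against 20.1% and 17.5% of all genes. This list, too, was chosen with earlier results of these data known, so that the count is a description. Lef1, the β-catenin partner described upstream of Eda, was at 78.7, 57.6 and 51.1 CPM in SA tumors 1, 2 and 3 and at 0.859, 0.467 and 0.546 in WT penises 1, 2 and 3, a log2 fold change of 6.66 (SE 0.271, adjusted p = 1.82e-06). Lef1 thus rose where Eda fell. Inhba, which encodes the activin subunit known to induce Edar, was at 23.8, 24.7 and 24.0 CPM in SA and at 2.67, 2.34 and 2.46 in WT, a log2 fold change of 3.28 (SE 0.137, adjusted p = 1.96e-06). Bmp2, of a pathway that restrains Edar in skin, rose by 3.99 (SE 0.204, adjusted p = 3.18e-06) and the feedback gene Axin2 by 3.83 (SE 0.175, adjusted p = 2.23e-06). Among receptors that mark epithelial stem cells, Lgr6 rose by 3.55 (SE 0.227, adjusted p = 8.38e-06) and Lgr5 fell, with a log2 fold change of -0.93 (SE 0.122, adjusted p = 0.000342). Trp63, the regulator of stratified epithelium, had -0.82 (SE 0.123, adjusted p = 0.000712). Msx1, a homeobox gene, had -0.57 (adjusted p = 0.00467). When libraries were scaled to epithelial markers, a list that holds Trp63 itself, none of these 3 falls passed. Msx1 then turned sign, to 0.22 (adjusted p = 0.240). With library totals only, Msx1 missed the threshold (adjusted p = 0.0663).

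Eda2r is known as a target of p53, and genes of that pathway were read beside it. Of 12 genes, 4 were higher, 1 was lower and 7 passed no threshold. The share called, 41.7%, was near the 37.6% of all genes, and the median log2 fold change was 0.15. The count is therefore no result about the list. The genes that rose were Aen at 1.36 (SE 0.122, adjusted p = 4.29e-05), Bax at 0.81, Ccng1 at 0.77 and Phlda3 at 0.74, beside 1.68 for Eda2r. Cdkn1a, the main cell cycle target, was at 479, 345 and 320.0 CPM in SA and at 431, 409.8 and 393 in WT, a log2 fold change of -0.11 (adjusted p = 0.579). Mdm2 did not pass either, at 0.30 (adjusted p = 0.0729). Perp, which is also a desmosome gene of stratified epithelium, fell, with -1.30 (SE 0.116, adjusted p = 4.26e-05). Scaled to epithelial markers, a list that holds Perp itself, it was -0.51 and missed the threshold (adjusted p = 0.0301).

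Marker lists of other cell types differed in how they moved. Fibroblast markers summed to 1527, 4227 and 5361 CPM in SA tumors 1, 2 and 3 and to 6376 to 6688 in WT, with 1 of 9 genes higher and 1 lower. SA tumor 1, with the highest Edar, Edaradd, Eda2r, Tnfrsf19 and Traf6 of the 3 tumors, had the lowest fibroblast sum, and Eda was highest in that tumor too. Leukocyte markers summed to 76.0, 149.8 and 226 CPM in SA tumors 1, 2 and 3 and to 93.5 to 120.3 in WT, with 0 of 6 tested genes past the threshold by edgeR, 3 at an unadjusted p under 0.05, 2 by DESeq2 and 0 by limma-voom. The median log2 fold change of these 6 genes was 1.04, and the listed marker Ly6g had no row. By mass cytometry, the study reported a larger share of CD45-positive immune cells in SA tumors than in penises of Cre-negative littermates. Endothelial markers summed to 163, 202 and 279 CPM in SA tumors 1, 2 and 3 and to 279.8 to 323 in WT, with 1 of 6 genes lower. The called shares of these 3 lists were below the 37.6% of all genes. Smooth muscle markers were lower for 7 of 7 genes. Schwann cell markers were lower for 4 of 5 genes, summing to 43.9 to 78.8 CPM in SA and 344 to 398 in WT. Cartilage and bone markers summed to 19.4, 24.5 and 9.43 CPM in SA tumors 1, 2 and 3 and to 0.904, 1.10 and 2.09 in WT penises 1, 2 and 3, with 2 of 3 tested genes, Col2a1 and Ibsp, higher past both thresholds. Their sum was above WT in every tumor and highest in SA tumor 2. Skeletal muscle markers summed to 10.1 to 11.6 CPM in SA and 16.8 to 22.9 in WT, with 2 of 6 tested genes lower and 1 higher. Adipocyte markers summed to 0.430 to 0.854 CPM in SA and 0.228 to 0.534 in WT, and the single gene tested did not pass. Of the epithelial markers, 7 of 14 were lower and 2 were higher, the latter Epcam at 2.35 and Cdh3 at 0.97, and 6 of 7 suprabasal markers were lower. The part of tissue composition in the differences of the 6 genes and in the order of the tumors was not tested. Without SA tumor 1, the log2 fold change was 3.58 (adjusted p = 5.34e-05) for Edar and -1.38 (adjusted p = 0.000629) for Eda. Scaled to epithelial markers, it was 4.64 (adjusted p = 2.04e-06) for Edar and 2.29 (adjusted p = 2.59e-06) for Edaradd. For Eda it was -0.51 (adjusted p = 0.0380), past no threshold used here. This scaling shifts the median log2 fold change of all genes to 0.82.

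**Figure D5:**
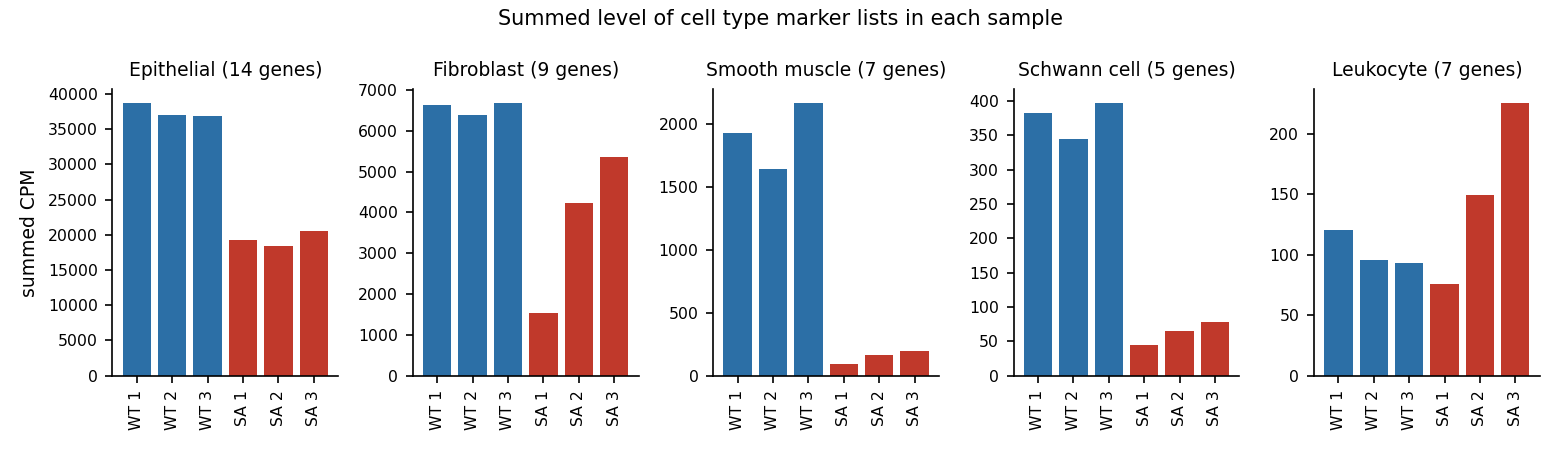
Summed CPM of 5 cell type marker lists in each of the 6 samples, with WT penis in blue and SA tumor in red and a separate axis from 0 in each panel. Epithelial, fibroblast, smooth muscle and Schwann cell sums are lower in every SA tumor than in every WT penis. Within the SA tumors the fibroblast and leukocyte sums are lowest in SA tumor 1.

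For each of the 6 genes, the 3 genes with the most similar pattern were found by Pearson's r of log2 CPM over the 6 samples, among 13823 tested genes whose counts averaged 100 or more. The r values of these 18 genes were between 0.996 and 0.999. They describe mainly the shared difference between the groups, in libraries that also share depth and composition. The genes nearest to Edar were Lmo2, 4732490B19Rik and Kif15. Those nearest to Edaradd were Cbfa2t2, Lrp4 and Tango6, and Lrp4 is also in the list of Eda/Edar-responsive genes. Tnfrsf19 was nearest to Bcl2, Etv5 and Ccne1, and Eda2r to Slc25a32, Sp4 and Chd6. Traf6 was nearest to Cdk8, Sp6 and Mex3d. Eda was nearest to Herpud2, Tank and Cept1, which all fell, and Tank encodes a TRAF-binding protein.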

How the data were processed

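Stranded paired-end libraries were made from 3 SA tumors and 3 WT penile epithelia. TopHat, FastQC and HTSeq were used by the authors to align reads to mm10, check them and count them (versions not given in the sources used here). The deposited tables hold 1 raw count per RefSeq transcript. FPKM values (per length and library) and TPM values, which the authors derived from the counts, were also deposited. TPM was used only for levels within a group, and FPKM was not tested. Transcripts of a symbol share reads, and summing all transcripts gave 1.45 to 1.48 times the total of the rows used. The row with the highest mean count represented each symbol. Samples were grouped by their labels.

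Tests were run with edgeR 4.0.16 (R 4.3.3). Genes passed filterByExpr (minimum count 10, minimum total 15), which left 16336, and all 6 ectodysplasin genes passed. TMM normalization, the robust quasi-likelihood F-test and Benjamini-Hochberg adjustment over all genes tested were used. The thresholds, an adjusted p under 0.01 and a log2 fold change of 2 or more in size, are those of the study, which used DESeq2. The standard error was the log2 fold change over the square root of F. Log2 CPM used a prior count of 2. The 6 genes and all gene lists were chosen with earlier results of these data known. Named are the 6 genes, the largest changes past the threshold in each list (3 up, 2 down), any gene of the Eda/Edar-responsive list, the 3 genes of nearest pattern, Smad4 and Apc, and markers that moved with the 6 genes. Genes named beyond this rule (Tab2, Tab3, Map3k7, Chuk, Ikbkb, Traf3, Tnfaip3, Cyld, Nfkb1, Tnfrsf22, Tnfrsf23, Msx1, Lgr6, Inhba, Cdkn1a, Mdm2, Phlda3) were chosen after their values were seen. Some marker genes were not analysed here.

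The alternatives were DESeq2 1.42.0, limma-voom (3.58.1), 4 other scalings, 2 other filters, glmTreat, the replicate number as a block, 2 other choices of row, each sample left out, and, added after the data were seen, the deepest library thinned. For the receptor ratios, a pseudocount of 2 was added to each count. On simulated counts for 16151 genes with the spread of these samples, the test recovered 50% of 100 genes with a true log2 value of 1 and 95% of 100 with 2, and called 5 unchanged genes. Far fewer genes were changed in the simulation than the 37.6% of all genes called in the data, so that the adjustment was stricter there. The rates therefore do not give the sensitivity of the test in these data.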

Additional observations from a re-analysis of the deposited data

How the results depend on the processing

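Each of the 6 genes kept its direction in all 19 alternatives. Edar stayed past an adjusted p of 0.01 in all 19, between 3.54 and 4.64. Edaradd, Eda2r and Tnfrsf19 stayed past it in 18 of 19, Eda in 17 and Traf6 in 12. The test against a log2 fold change of 2 itself, edgeR's glmTreat, left 1 of the 6 genes higher and 0 lower. It did not pass Eda (-1.28), Edaradd (1.50), Eda2r (1.68), Tnfrsf19 (2.05) or Traf6 (0.65), each with the fold change of the main test, and it counted 1 gene past both thresholds. In the lists it left 2 other TNF receptors higher and 1 lower, 1 relay gene higher and 0 lower, 7 Eda/Edar-responsive genes higher, 0 upstream genes lower, and 0 p53 genes higher and 0 lower. By construction this test asks for a larger change, and it left 749 of all genes higher and 180 lower.

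Scaling to epithelial markers gave a median log2 fold change of 0.82 over all genes. Eda was then -0.51 (adjusted p = 0.0380), with 0 of the 6 genes lower and 4 higher past both thresholds. In the lists, 16 other TNF receptors were higher and 1 lower, 18 relay genes higher and 0 lower, 0 upstream genes lower, and 10 p53 genes higher and 0 lower. The marker list itself holds Trp63 of the upstream list and Perp of the p53 list. With library totals only, 9 relay genes were higher and 0 lower. Of all genes, 5244 were then higher and 1807 lower, and 9818 and 850 with the epithelial scaling, against 3283 and 2865 in the main test.

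The replicate numbers were not treated as pairs. Residuals of same-numbered samples correlated at -0.13, -0.10 and 0.02, and 1 of the 6 samples correlated best with its own number. With the replicate block, Traf6 was 0.64 (adjusted p = 0.0202) and 3 relay genes were lower. The block changed no other call of the 6 genes. With SA tumor 3 thinned to the depth of the others, Traf6 was 0.63 (adjusted p = 0.0103), an alternative chosen after the data were seen. With 1 sample at a time left out, Traf6 ranged from 0.49 to 0.75, the 6 genes called higher from 4 to 5, those past both thresholds from 1 to 2, and the relay genes lower from 2 to 4. The cause of these changes was not tested. Depth limits Edar in WT most, where counts were 14 to 41.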

Other observations

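The 3 Eda2r rows did not all carry the same count. The row NM_001161433, at 0.451 times the length of the chosen row, held 38.6%, 29.0% and 38.5% of the chosen row's count in SA tumors 1, 2 and 3. In WT penises 1, 2 and 3 it held 26.7%, 24.3% and 28.6%, from counts of 16, 27 and 22. Every tumor was above every WT penis, with SA tumor 2 close to WT penis 3. The rows share reads, and no test of this difference was run. The Tnfrsf19 rows, by contrast, kept between 95.7% and 96.7% in all 6 samples.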
